A study of Mus musculus with 8 samples.

Results

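The 37 genes described here mark endothelial cells, which form the inner lining of vessels, and were taken from a fixed list of names matched to the gene symbols of the deposited count table. All 37 were found among its 28732 genes. They comprise 5 junction and adhesion genes, 5 genes of sialomucins and Ly6 proteins, 8 transcription factor genes, 7 surface receptor genes, 7 genes of secreted or matrix proteins, and 5 genes of other membrane or intracellular proteins.

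RNA of the cerebral cortex was sequenced in 4 knockout and 4 control libraries. Knockout mice had the genotype Cdh5-CreER::Tak1fl/fl, in which an inducible Cre expressed from a Cdh5 transgene promoter removes floxed Tak1 in endothelial cells, and control mice were Tak1fl/fl without Cre. Both groups carried the floxed alleles and received Tamoxifen. The age was postnatal day 90 in the sample labels and 12 to 14 weeks in the series text, and the controls were littermates. Libraries are named after the deposited columns, as knockouts 2 to 5 and controls 1 to 4. The labels do not tie each library to its own animal, and the p-values below measure library spread only, which may be technical. Depth was 13483354 to 17728963 counts per library, of which the mitochondrial ribosomal gene mt-Rnr2 took 23.9% to 25.2% in knockouts and 17.3% to 24.0% in controls. Its partner mt-Rnr1 took 3.03% to 4.19% in knockouts and 1.36% to 2.18% in controls, so that the groups did not overlap. The part of these shares in the results was not tested.

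Endothelial cells keep their identity through transcription factors of the ETS and SoxF families, which switch on the genes of the junctions, receptors and cell coat of the vessel lining. In the brain the same cells also form the blood-brain barrier, a property that depends on Wnt signalling and on forkhead factors. In whole cortex these cells are a small fraction, and in such bulk RNA fewer cells of a type and less RNA per cell cannot be told apart. Neuronal markers were abundant, with a summed level over 10 genes of 8683 to 11292 CPM (counts scaled to library size, with TMM factors) in knockouts and 9192 to 10563 CPM in controls. Map3k7, the gene of TAK1, was at 38.8 ± 3.16 CPM in knockouts and 40.02 ± 2.89 CPM in controls (SD, n = 4 each). Its counts cover all exons in all cell types, so this level does not test the deletion.

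Of the 37 genes, 35 passed the filter on low counts, and 7 of these rose while 1 fell in knockouts at an adjusted p of 0.05 (edgeR's quasi-likelihood test, Benjamini-Hochberg adjustment over all 15564 genes tested). The other 27 did not pass. Among all tested genes 3.44% were called higher, 2.99% lower and 6.43% either way, and among the 35 the share called either way was 22.9%. The fold change was above 0 in 25 of the 35, compared with 49.8% of all tested genes. The median log2 fold change was 0.32 over the 35 genes and -0.0021 over all tested genes. All 4 knockouts lay above all 4 controls in 8 members (8.58% of all tested genes) and below them in 1 member (7.65% of all tested genes). The number of rises depended on single libraries. It was 4 without knockout 2, 8 without knockout 3, 11 without knockout 4 and 3 without knockout 5, where 1.42%, 3.77%, 6.40% and 0.69% of all tested genes were called higher. It was 6, 2, 5 and 6 without controls 1, 2, 3 and 4, where 1.31%, 0.586%, 1.63% and 3.60% were called higher. Members called lower numbered 2 without knockout 4 and 1 without control 4, beside 6.60% and 3.63% of all tested genes. They numbered 0 without knockout 2, 3 or 5 and without control 1, 2 or 3, although 1 or 2 members were lower at an unadjusted p under 0.05 in each of these edgeR fits. All tested genes called lower there were 0.927%, 3.33% and 0.291% for the knockouts and 0.736%, 0.221% and 1.33% for the controls. In DESeq2 on the same counts, 10 members rose and 1 fell, with 5.54% and 5.19% of all genes called, and in limma voom 5 rose and 1 fell, with 3.08% and 2.97% called. The authors' deposited table gives an adjusted p for 36 of the 37 and calls 10 higher and 1 lower, beside 5.34% and 4.91% of its 17023 genes. It rests on the same counts and the same method as the DESeq2 fit above, so it is not a separate check.

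**Figure D1:**
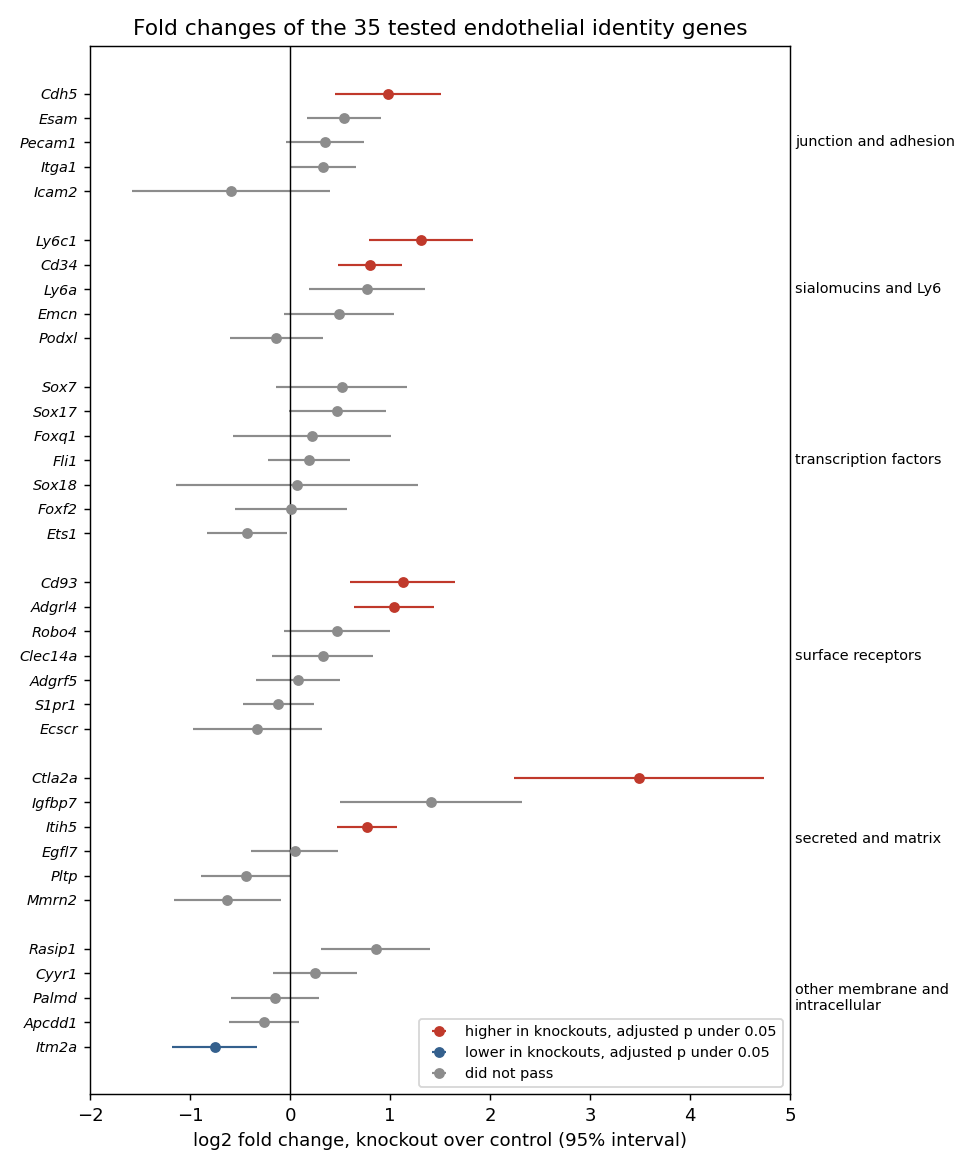
Log2 fold change of knockout over control with its 95% interval for the 35 tested genes, grouped by role; red and blue points passed an adjusted p of 0.05. The fold changes run from -0.76 for Itm2a to 3.49 for Ctla2a, and no transcription factor passed.

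For 19 of the 37 genes, the region before the transcription start was taken from RefSeq, in 26 windows. Each window ran from 250 bases before to 50 bases after a start (GRCm38.p6). The other members, Ecscr and Apcdd1 among them, were not searched, and the shares over all windows and all genes were not matched for this. The windows were searched on both strands for 2 ETS-type motifs, ACAGGAA and CCGGAAG, and for 2 SOX-type motifs, ACAAAG and ACAATG. No 2 of these 4 motifs contain each other. ACAGGAA was found in 8 of 26 windows (30.8%), belonging to 6 of 19 genes (31.6%), and in 8.67% of all 32851 windows and 9.73% of all 27025 genes. CCGGAAG was in 0 of the 26 windows and in 8.86% of all windows. ACAAAG was in 3 of 26 windows (11.5%) and ACAATG in 1 of 26 (3.85%), against 18.7% and 12.6% of all windows. A match describes the letters and does not show a bound factor. Windows of one gene can overlap, as the pair of Ctla2a does. The 6 windows below show 4 genes that passed (Ctla2a, Cd34, Adgrl4 and Itm2a) and 2 that did not (Emcn and Rasip1). Capitals mark ACAGGAA, which reads TTCCTGT where it lies on the other strand, and each sequence runs 5′ to 3′ along the gene's own strand.
Ctla2a, chr13:60936517-60936816, minus strand: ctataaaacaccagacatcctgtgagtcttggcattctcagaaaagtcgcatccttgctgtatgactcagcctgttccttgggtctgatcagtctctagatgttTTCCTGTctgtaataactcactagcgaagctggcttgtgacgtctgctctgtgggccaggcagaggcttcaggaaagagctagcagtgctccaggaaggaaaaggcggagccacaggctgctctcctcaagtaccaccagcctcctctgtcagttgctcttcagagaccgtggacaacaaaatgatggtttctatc
Emcn, chr3:137340828-137341127, plus strand: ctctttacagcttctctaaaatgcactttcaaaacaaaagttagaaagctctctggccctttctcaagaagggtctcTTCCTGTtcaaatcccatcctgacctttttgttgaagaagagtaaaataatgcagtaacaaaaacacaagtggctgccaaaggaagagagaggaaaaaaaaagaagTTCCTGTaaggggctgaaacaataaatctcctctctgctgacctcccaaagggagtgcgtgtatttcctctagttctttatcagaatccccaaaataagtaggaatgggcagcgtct
Rasip1, chr7:45627287-45627586, plus strand: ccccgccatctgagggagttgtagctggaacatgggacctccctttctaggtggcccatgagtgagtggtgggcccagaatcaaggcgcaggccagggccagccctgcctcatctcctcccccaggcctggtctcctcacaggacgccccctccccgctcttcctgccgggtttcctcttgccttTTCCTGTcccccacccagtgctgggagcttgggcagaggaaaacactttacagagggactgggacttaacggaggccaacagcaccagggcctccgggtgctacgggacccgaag
Adgrl4, chr3:151437632-151437931, plus strand: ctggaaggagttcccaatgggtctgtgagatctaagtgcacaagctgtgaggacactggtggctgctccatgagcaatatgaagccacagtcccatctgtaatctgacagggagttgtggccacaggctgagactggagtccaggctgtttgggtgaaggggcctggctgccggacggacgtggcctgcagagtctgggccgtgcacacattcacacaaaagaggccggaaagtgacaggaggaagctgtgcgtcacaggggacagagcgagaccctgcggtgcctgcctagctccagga
Cd34, chr1:194938571-194938870, plus strand: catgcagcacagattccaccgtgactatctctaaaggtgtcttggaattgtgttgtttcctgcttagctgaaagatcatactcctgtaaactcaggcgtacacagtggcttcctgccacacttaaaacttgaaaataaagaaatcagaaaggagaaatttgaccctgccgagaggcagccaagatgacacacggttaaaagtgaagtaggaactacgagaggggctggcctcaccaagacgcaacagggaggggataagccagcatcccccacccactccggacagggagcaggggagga
Itm2a, chrX:107403311-107403610, minus strand: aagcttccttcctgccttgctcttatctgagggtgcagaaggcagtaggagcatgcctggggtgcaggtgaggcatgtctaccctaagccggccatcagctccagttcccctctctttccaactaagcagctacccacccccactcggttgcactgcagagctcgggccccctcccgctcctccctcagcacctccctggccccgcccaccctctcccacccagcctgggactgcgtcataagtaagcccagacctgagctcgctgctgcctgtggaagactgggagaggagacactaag
Emcn had 2 matches, Ctla2a and Rasip1 had 1 each, and Adgrl4, Cd34 and Itm2a had none in these windows.

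Among junction and adhesion genes, Cdh5 rose and the other 4 did not pass. Cdh5 (ENSMUSG00000031871, chromosome 8, 104101625 to 104144511, GRCm38) encodes VE-cadherin, the adhesion protein of endothelial junctions, and its promoter also drives the Cre of the knockouts. It was at 25.5, 16.8, 11.1 and 27.4 CPM in knockouts 2 to 5, against 9.28, 9.60, 11.3 and 10.8 CPM in controls 1 to 4. Knockout 4 lay within the control range and the other 3 knockouts lay above it. Its change on the log2 scale was 0.98 ± 0.24 (SE; edgeR adjusted p = 0.0377). The call was lost in limma voom and in 6 of the 8 fits that left out a library, and was kept without knockout 3 or knockout 4. Esam, which encodes an adhesion molecule of endothelial tight junctions, was at 7.93, 6.00, 5.85 and 7.06 CPM in knockouts and 4.24, 4.58, 4.60 and 5.06 CPM in controls. Although the groups did not overlap, it did not pass (0.54 ± 0.17, edgeR adjusted p = 0.0758), and it passed without knockout 4. Pecam1, the gene of the adhesion molecule CD31, was at 23.9, 17.3, 15.9 and 24.8 CPM in knockouts, against 20.7, 15.4, 14.9 and 13.4 CPM in controls. The groups overlapped, with knockouts 2 and 5 above all controls, and the 95% interval of its log2 fold change ran from -0.04 to 0.74. Itga1, which encodes a collagen-binding integrin chain, was at 16.6, 12.8, 16.7 and 20.8 CPM in knockouts and 14.5, 13.2, 13.2 and 12.3 CPM in controls. All knockouts except knockout 3 exceeded the controls (0.33 ± 0.15, edgeR adjusted p = 0.198). Icam2, a ligand for leukocyte integrins, rested on 2 to 20 counts per library and had a log2 fold change of -0.59 with an interval of -1.59 to 0.40.

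Sialomucins are heavily glycosylated proteins of the endothelial coat, and Ly6 proteins are held at the surface by a lipid anchor. Cd34 and Ly6c1 rose, while Ly6a, Emcn and Podxl did not pass. Cd34 (ENSMUSG00000016494, chromosome 1, 194938819 to 194961279) was at 53.2, 39.9, 34.998 and 51.3 CPM in knockouts 2 to 5, against 22.8, 26.1, 25.2 and 29.1 CPM in controls 1 to 4. Every knockout lay above every control, and the log2 fold change was 0.80 ± 0.15 (edgeR adjusted p = 0.0120). Cd34 lost its call without knockout 5 (adjusted p = 0.0558) or without control 2 (0.0529). Ly6c1 (chromosome 15, 75044018 to 75048830) was at 8.28, 3.72, 6.67 and 6.65 CPM in knockouts and 2.52, 2.26, 2.85 and 2.63 CPM in controls. The groups did not overlap and the log2 fold change was 1.31 ± 0.24 (edgeR adjusted p = 0.0117), with the call lost only without control 2 among the 8 fits leaving out a library (0.0562). Its transcript shares 97.6% identity over 822 bases with that of Ly6c2, a gene of monocytes, so that reads cannot always be assigned to one of them. Ly6c2 itself had 3 counts in all knockouts and 0 in all controls, where 0 counts allow up to 0.164 to 0.216 CPM in a control library (3 counts, counting error only).

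Ly6a, whose product is the stem cell antigen Sca-1, was at 5.83, 2.66, 4.33 and 5.43 CPM in knockouts and 2.45, 1.95, 2.90 and 3.44 CPM in controls. Knockout 3 lay among the controls and the other knockouts above them (0.77 ± 0.27, edgeR adjusted p = 0.0972), and Ly6a passed without knockout 3 (0.0331). Emcn, which encodes endomucin, a sialomucin of capillaries and veins, was at 2.22, 1.75, 2.28 and 2.51 CPM in knockouts and 1.87, 1.44, 1.53 and 1.42 CPM in controls (0.49 ± 0.26, edgeR adjusted p = 0.250). Podxl, the gene of podocalyxin, was at 25.6, 11.2, 22.9 and 17.2 CPM in knockouts and 19.3, 19.4, 24.6 and 21.7 CPM in controls. Its knockouts fell on both sides of the controls, knockout 2 above them and knockouts 3 and 5 below, and its fold change was -0.14 ± 0.21.

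**Figure D2:**
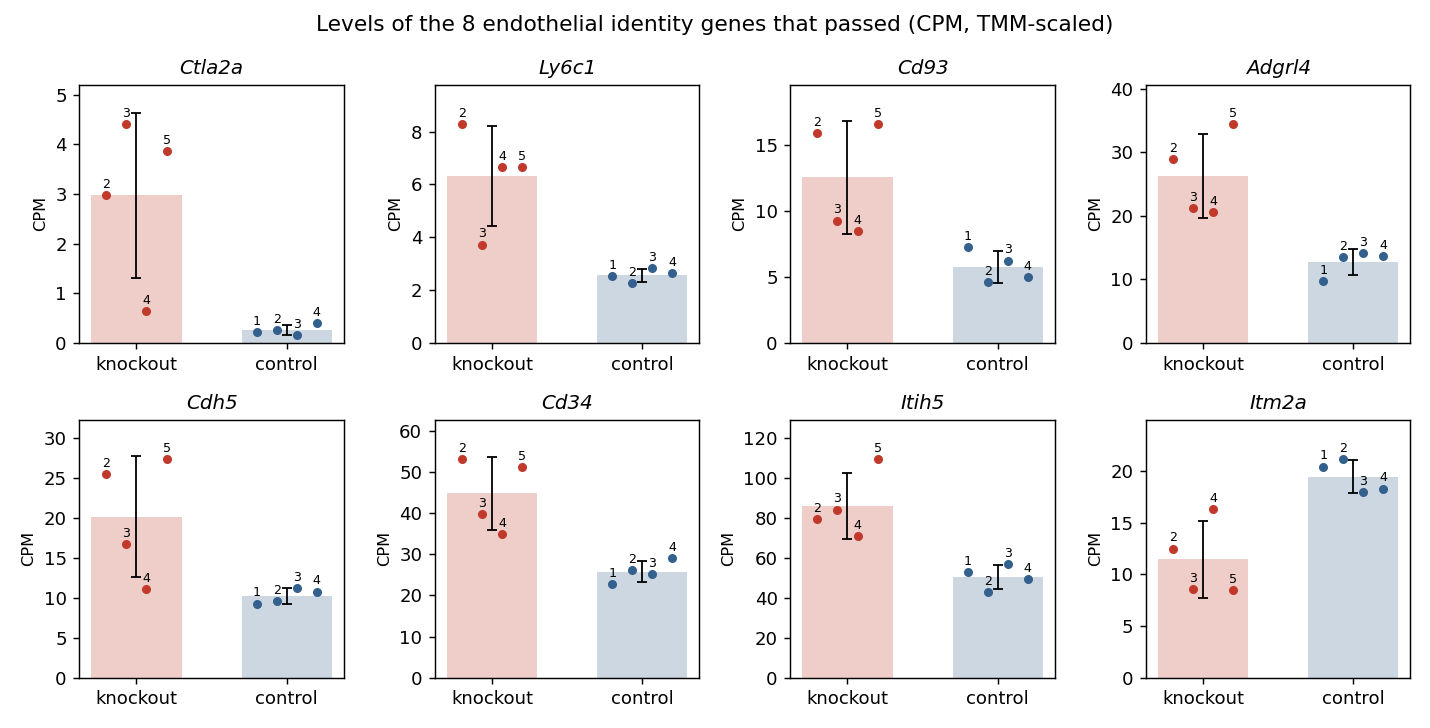
CPM of the 8 genes that passed, ordered from the largest rise to the fall, with numbered points for libraries, bars for the group mean and whiskers for the SD (n = 4 each). Knockout 4 is the knockout nearest to the controls in 7 of the 8 panels and knockout 3 is nearest for Ly6c1.

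Of the transcription factor genes, 7 were tested and none passed in edgeR, DESeq2 or limma voom. At an unadjusted p under 0.05 in edgeR, 0 were higher and 1, Ets1, was lower. The ETS factor gene Ets1 was at 6.24, 5.32, 8.60 and 6.65 CPM in knockouts 2 to 5, against 9.35, 9.23, 10.6 and 7.22 CPM in controls 1 to 4. Knockouts 2, 3 and 5 lay below all controls (-0.44 ± 0.19, edgeR adjusted p = 0.158). Ets1 and Fli1 are also expressed by lymphoid and myeloid cells. Fli1, a second ETS factor, had an interval of -0.22 to 0.60 for its log2 fold change. Erg, an ETS factor that maintains endothelial identity, had 1 to 4 counts per library in knockouts and 0 to 4 in controls, and was not tested. At this depth no difference in Erg was detectable.

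The SoxF genes Sox7, Sox17 and Sox18 act together in the specification of arteries and vessels. Sox17 was at 2.68, 3.49, 2.58 and 2.71 CPM in knockouts and 2.23, 1.95, 2.19 and 1.89 CPM in controls. Its groups did not overlap but the difference did not pass (0.47 ± 0.22, edgeR adjusted p = 0.210). Sox7 was at 2.04, 1.37, 1.35 and 1.90 CPM in knockouts and 1.01, 0.942, 1.53 and 1.15 CPM in controls, with knockouts 2 and 5 above all controls (0.52 ± 0.30, edgeR adjusted p = 0.310). Sox18 rested on 2 to 14 counts per library, and its interval of -1.14 to 1.28 covers both a fall and a rise of more than 2-fold. The forkhead genes Foxq1 and Foxf2, which are enriched in brain vessels, had intervals of -0.58 to 1.01 and of -0.56 to 0.57. In Foxq1, 66.1% of the exon bases are shared with a gene on the opposite strand, and whether counting used strand is not stated. Foxf2 is also a factor of brain pericytes.

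Among surface receptor genes, Adgrl4 and Cd93 rose and the other 5 did not pass. Adgrl4 (ENSMUSG00000039167, chromosome 3, 151437887 to 151545086) encodes an adhesion-type receptor of endothelial cells that was first named ELTD1. It was at 28.9, 21.2, 20.5 and 34.4 CPM in knockouts 2 to 5, against 9.71, 13.5, 14.1 and 13.7 CPM in controls 1 to 4. Every knockout lay above every control, with knockouts 2 and 5 the highest (1.04 ± 0.19, edgeR adjusted p = 0.0101). Adgrl4 was the one member that passed in each of the 8 fits that left out a library, with adjusted p up to 0.0475. Cd93 (chromosome 2, 148436640 to 148443563), which encodes a lectin-like receptor of endothelium and myeloid cells, was at 15.9, 9.26, 8.49 and 16.6 CPM in knockouts. In controls it was at 7.26, 4.58, 6.24 and 4.99 CPM. The groups did not overlap (1.12 ± 0.24, edgeR adjusted p = 0.0216), and the call was lost without knockout 2, knockout 5, control 2 or control 3 (adjusted p 0.0651, 0.0788, 0.0830 and 0.0514).

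Clec14a, whose product belongs to the same lectin family as Cd93, was at 4.67, 3.27, 5.09 and 5.02 CPM in knockouts and 2.59, 4.33, 4.49 and 2.97 CPM in controls. The groups overlapped through knockout 3 (0.32 ± 0.23, edgeR adjusted p = 0.417). Robo4, a guidance receptor that stabilises vessels, was at 3.27, 2.89, 4.62 and 3.80 CPM in knockouts and 3.45, 2.32, 2.90 and 1.89 CPM in controls (0.47 ± 0.25, edgeR adjusted p = 0.254). Ecscr, a small endothelial membrane protein gene, was at 2.68, 1.14, 1.70 and 1.97 CPM in knockouts and 2.16, 3.20, 2.24 and 1.89 CPM in controls. Knockouts 3 and 4 were below all controls, and the fold change was -0.33 ± 0.30. Adgrf5, an adhesion-type receptor related to Adgrl4, ranged from 63.2 to 92.4 CPM in knockouts, inside the control range of 51.1 to 99.3 CPM. S1pr1, which encodes the sphingosine 1-phosphate receptor of endothelium and is also expressed by astrocytes, ranged from 56.5 CPM in knockout 3 to 107 CPM in knockout 2. Its control range, 82.1 to 99.1 CPM, lay between these, and its interval ran from -0.48 to 0.24. Per length it was the most abundant member, at 27.3 RPKM (CPM per kilobase of exon) in knockouts and 29.7 RPKM in controls. Itih5 came next in knockouts, at 10.9 RPKM, and Itm2a came next in controls, at 11.2 RPKM.

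Among genes of secreted and matrix proteins, Ctla2a and Itih5 rose, Igfbp7, Mmrn2, Pltp and Egfl7 did not pass, and Pglyrp1 was not tested. Ctla2a (ENSMUSG00000044258, chromosome 13, 60934155 to 60936625), which encodes an inhibitor of cysteine proteases, had the largest fold change of the set. It was at 2.97, 4.40, 0.644 and 3.87 CPM in knockouts 2 to 5, against 0.216, 0.251, 0.164 and 0.405 CPM in controls 1 to 4. Knockout 4 lay close above the controls and the other 3 knockouts far above them (3.49 ± 0.58, edgeR adjusted p = 0.00893). These levels rest on 11 to 58 counts per library in knockouts and 3 to 6 in controls. Ctla2a did not pass in limma voom (adjusted p = 0.0568), and was removed by the filter on low counts when knockout 2 or knockout 5 was left out. Its transcript shares 93.4% identity over 707 bases with its neighbour Ctla2b, which had 10 counts in all knockouts and 7 in all controls. A stretch of 445 bases is 98.7% identical to Gm49391, which was not analysed here. Many other transcripts share shorter stretches with Ctla2a at 90% identity or more, among them Syne1 (373 bases) and Mef2a (237 bases). Syne1 had 52799 counts in all knockouts and 47242 in all controls, and Mef2a had 19336 and 19949. The part of shared sequence in the Ctla2a counts was not tested.

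Itih5 (ENSMUSG00000025780, chromosome 2, 10153571 to 10256529), which encodes a protein that binds hyaluronan in the matrix, was at 79.2, 84.1, 71.0 and 109 CPM in knockouts. In controls it was at 52.9, 42.9, 56.8 and 49.5 CPM. All knockouts exceeded all controls (0.77 ± 0.14, edgeR adjusted p = 0.0114), and the call was lost without control 2 (0.0562). Igfbp7, a secreted growth factor binding protein of vessels that mural cells also make, was at 10.3, 15.6, 3.63 and 12.2 CPM in knockouts and 4.39, 5.21, 3.78 and 2.29 CPM in controls. Knockout 4 lay among the controls, and the other 3 knockouts were all above them. Igfbp7 did not pass (1.40 ± 0.41, edgeR adjusted p = 0.0690), but passed without knockout 4 (1.70, adjusted p = 0.00108) and in DESeq2 (0.00255).

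Mmrn2, a matrix protein that binds Cd93 and Clec14a, was at 2.68, 2.05, 4.21 and 2.78 CPM in knockouts and 5.83, 4.21, 3.61 and 4.72 CPM in controls. Knockouts 2, 3 and 5 lay below all controls (-0.63 ± 0.25, edgeR adjusted p = 0.131), and Mmrn2 passed without knockout 4 (0.0352). Its 95% interval was -1.17 to -0.10, while that of its partner Cd93 was 0.59 to 1.65. Pltp, the phospholipid transfer protein gene, was at 10.1, 6.38, 12.9 and 10.99 CPM in knockouts and 10.1, 13.8, 16.2 and 14.8 CPM in controls (-0.44 ± 0.21, edgeR adjusted p = 0.203). It shares 19.3% of its exon bases with Ctsa on the opposite strand. Egfl7, a secreted protein gene of vessels, had an interval of -0.39 to 0.48. Pglyrp1, a peptidoglycan recognition protein gene of brain endothelium and of neutrophils, had 35, 30, 5 and 13 counts in knockouts 2 to 5, against 0, 3, 7 and 6 counts in controls 1 to 4. It failed the filter on low counts, and passed in fits without that filter. The neutrophil gene S100a8 was at 4.72, 3.72, 0.293 and 2.92 CPM in knockouts 2 to 5, against 0.0719, 0.0628, 0.219 and 0.0675 CPM in controls. Its low value in knockout 4 was in the same library as that of Pglyrp1, and its part in the values of Pglyrp1 was not tested.

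Of the other membrane and intracellular protein genes, Itm2a fell and the other 4 did not pass. Itm2a (ENSMUSG00000031239, chromosome X, 107397099 to 107403376), which encodes a single-pass membrane protein enriched in brain vessels, was at 12.5, 8.58, 16.3 and 8.48 CPM in knockouts 2 to 5. In controls 1 to 4 it was at 20.4, 21.2, 17.9 and 18.3 CPM. All knockouts lay below all controls, knockout 4 closest to them (-0.76 ± 0.20, edgeR adjusted p = 0.0392). The call was lost in 6 of the 8 fits that left out a library and kept without knockout 4 or control 4. Rasip1, which encodes a Ras-binding protein needed for the vessel lumen, was at 5.42, 5.32, 3.86 and 8.08 CPM in knockouts and 3.24, 2.70, 4.10 and 2.43 CPM in controls. Knockout 4 lay within the control range (0.85 ± 0.25, edgeR adjusted p = 0.0599), and Rasip1 passed in DESeq2 (0.0295) and without knockout 4 (0.0167). It shares 15.6% of its exon bases with A030001D20Rik on the opposite strand, which had 190 counts in all knockouts and 298 in all controls. Another 20.4% are shared with Izumo1 on the same strand, which had 0 and 3 counts. Apcdd1, an inhibitor of Wnt signalling and a barrier gene, was at 23.1, 19.4, 16.6 and 23.8 CPM in knockouts and 27.3, 27.4, 26.5 and 18.4 CPM in controls. The groups overlapped because control 4 was low (-0.26 ± 0.16, edgeR adjusted p = 0.332). Cyyr1 was at 8.92, 5.85, 8.08 and 8.89 CPM in knockouts and 6.19, 5.71, 8.70 and 6.14 CPM in controls (0.25 ± 0.19, edgeR adjusted p = 0.457), and Palmd, a paralemmin-family gene, had an interval of -0.59 to 0.29.

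**Figure D3:**
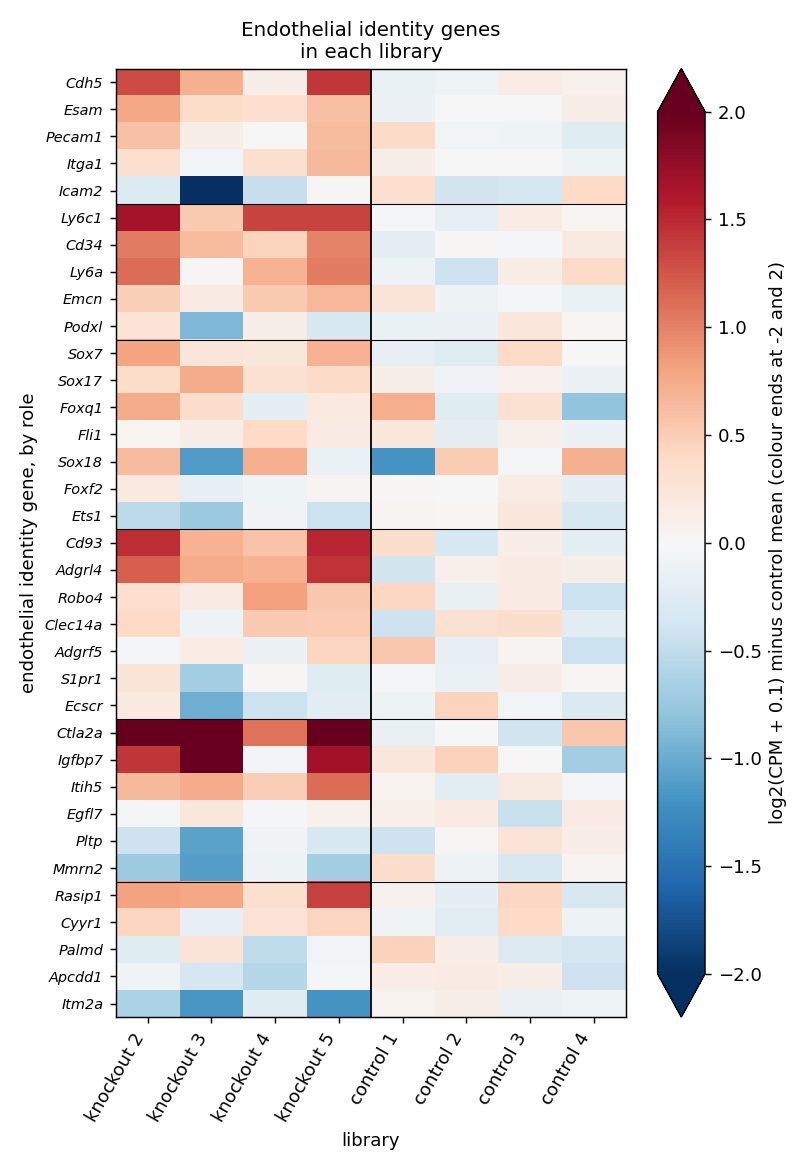
Difference of each library from the control mean, on the log2(CPM + 0.1) scale, for the 35 tested genes grouped by role, with knockouts left of the line and controls right of it. Red rows such as Cd34 and Adgrl4 are high in all knockouts, while Podxl, Ecscr and S1pr1 are low in knockout 3.

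The knockouts differed among themselves. The median difference of the 35 genes from the control mean was 0.41 in knockout 2, 0.15 in knockout 3, 0.22 in knockout 4 and 0.43 in knockout 5 on the log2(CPM + 0.1) scale, against -0.10 to 0.11 in controls. The same median over all tested genes was -0.01 to 0.02 in every library. Knockout 3 and knockout 4 were each the lowest of the 4 knockouts in 16 of the 35 genes, knockout 2 in 2 and knockout 5 in 1.  Among the 8 genes that passed, knockout 4 was the knockout nearest to the controls in 7 and knockout 3 in 1. Icam2, Podxl, Ets1, Ecscr, S1pr1, Mmrn2 and Pltp had their lowest value of all 8 libraries in knockout 3.

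Other endothelial genes were taken from lists that share no member with the 37. Beside the calls in this and the next paragraph, edgeR called 3.44% of all tested genes higher and 2.99% lower. DESeq2 called 5.54% and 5.19%, and limma voom 3.08% and 2.97%. Of 13 tested genes of endothelial receptors and signalling, none rose and 1 fell, with a median of 0.06. The gene that fell was Tek, the angiopoietin receptor gene (-1.18 ± 0.21). In edgeR 1 of the 13 was higher and 2 were lower at an unadjusted p under 0.05. DESeq2 called 0 higher and 2 lower, and limma voom 0 higher and 1 lower. Of 16 other endothelial genes 2 rose, the factor genes Lyl1 (1.72 ± 0.39) and Klf4 (0.85 ± 0.22), and 1 fell, Lmo2 (-0.74 ± 0.15), with a median of 0.16. Of 17 barrier transport and junction genes 4 rose and none fell, with a median of 0.15. The 3 with the smallest p were the glucose transporter Slc2a1 (1.30 ± 0.15), the lipid transporter Mfsd2a (1.10 ± 0.15) and the amino acid transporter chain Slc3a2 (0.44 ± 0.10). In that list 3 genes were lower at an unadjusted p under 0.05, and DESeq2 and limma voom called 0 lower.

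Of 13 arterial and venous genes 3 rose and 2 fell, with a median of 0.32. Tmem252 (2.72 ± 0.42) and the clotting factor gene Vwf (0.98 ± 0.22) rose, and the arterial ligand gene Efnb2 fell (-0.47 ± 0.10). Among 10 genes of tip cells and vessel growth, Adm (1.84 ± 0.44) and the Tek ligand gene Angpt2 (1.79 ± 0.34) rose. The median of these 10 genes was 0.31. In that list 0 fell in edgeR, with 1 lower at an unadjusted p under 0.05 and 0 in DESeq2 or limma voom. Of 7 endothelial activation genes 4 rose and none fell, with a median of 1.16, and none was lower at an unadjusted p under 0.05. They included Lcn2 (4.87 ± 0.56), Il1r1 (1.16 ± 0.20) and Ch25h (2.33 ± 0.49). These medians stand beside 0.32 for the 35 identity genes, and the differences between lists were not tested.

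**Figure D4:**
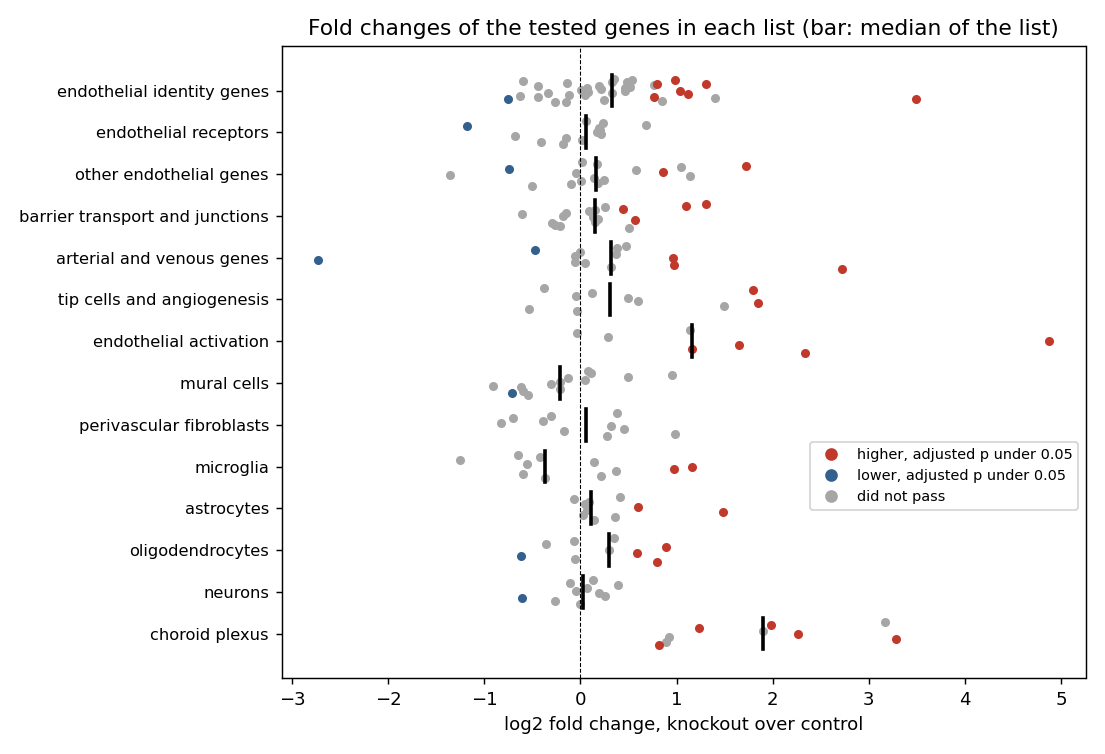
Log2 fold change of knockout over control for each tested gene of the identity set and of 13 other lists, with red points higher and blue points lower at an adjusted p of 0.05 and a bar at the median. The bar lies at 0.32 for the identity genes, -0.21 for mural cells, -0.36 for microglia and 1.90 for choroid plexus.

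Markers of other cell types moved with the groups in part. Over all tested genes edgeR called 3.44% higher and 2.99% lower, DESeq2 5.54% and 5.19%, and limma voom 3.08% and 2.97%. Choroid plexus markers, a tissue outside the cortex whose vessels have a permeable endothelium, summed over 9 genes to 661 to 853 CPM in knockouts and 174 to 395 CPM in controls, and 5 of 9 rose. All 9 were higher at an unadjusted p under 0.05 in edgeR, and DESeq2 and limma voom each called 7 higher. None of the 9 was at 0 in all libraries. Plvap, a gene of permeable endothelium, was at 18.8, 9.80, 5.91 and 14.4 CPM in knockouts, against 9.42, 14.3, 9.57 and 6.81 CPM in controls, and did not pass. Pericyte and smooth muscle markers summed over 17 genes to 164 to 201 CPM in knockouts and 179 to 197 CPM in controls. In that list 1 of 14 tested genes fell, Myl9 (-0.71 ± 0.18). Microglia markers summed over 11 genes to 316, 163, 288 and 204 CPM in knockouts 2 to 5 and 290 to 390 CPM in controls. Their median log2 fold change was -0.36. In edgeR 2 of 11 rose while 2 were lower at an unadjusted p under 0.05, and DESeq2 and limma voom each called 2 higher and 1 lower. Blood leukocyte markers summed over 8 genes to 8.43 to 26.5 CPM in knockouts and 4.58 to 5.91 CPM in controls, with 2 of 8 tested and neither passing in edgeR or limma voom, both higher at an unadjusted p under 0.05, and 3 higher in DESeq2. Erythroid markers, a sign of blood left in the vessels, summed over 4 genes to 7.70, 8.35, 16.3 and 8.62 CPM in knockouts 2 to 5. In controls they summed to 12.1 to 14.3 CPM, so that knockouts 2, 3 and 5 lay below all controls. Of the 4, 0 passed in edgeR, with 1 lower at an unadjusted p under 0.05, and DESeq2 and limma voom each called 1 lower. Perivascular fibroblast markers summed over 10 genes to 113 to 141 CPM in knockouts and 102 to 125 CPM in controls, and 0 of 10 passed in edgeR, DESeq2 or limma voom (2 higher and 3 lower at an unadjusted p under 0.05). Astrocyte markers summed to 6383 to 7299 CPM in knockouts and 5928 to 6976 CPM in controls, with 2 of 10 higher. Oligodendrocyte markers summed to 3479 to 4260 CPM in knockouts and 2853 to 3417 CPM in controls, with 3 of 9 higher and 1 lower. Of 10 neuronal markers 0 were higher and 1 was lower in edgeR. DESeq2 called 1 neuronal marker higher and 1 lower, and limma voom 0 higher and 1 lower. The part of these cell types in the changes of the identity genes was not tested.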

How the data were processed

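Total RNA of cortex was sequenced from 4 knockout and 4 control libraries. Per the submitters' processing notes, the authors used FastQC, HISAT or HISAT2 on GRCm38, featureCounts and DESeq2, with no version given. The deposited counts are whole numbers per gene and library without normalization. The deposited mean signal is the authors' mean of counts over size factors. From the authors' DESeq2 run come a log2 fold change with its error, a score (the Wald statistic) and p-values, all deposited beside the counts; only the number of calls is quoted. Of 29012 lines 280 repeats were removed, leaving 28732 genes. Depth was 13483354 to 17728963 counts per library.

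The filterByExpr function of edgeR removed 13168 genes and left 15564. After TMM scaling these entered edgeR's robust quasi-likelihood test, with p-values adjusted by Benjamini and Hochberg's method and called at 0.05. RPKM divide CPM by the union exon length of GENCODE release M21. Intervals of fold changes are at 95% and come from the same fit, so they carry the spread between libraries as well as counting error. Similar transcripts were found with blastn at 90% identity or more over at least 200 bases. Limits given for 0 counts cover counting error only. The software was DESeq2 1.42.0, limma 3.58.1 and edgeR 4.0.16 under R 4.3.3, with blastn 2.17.0, and matplotlib 3.10.9 under Python 3.11.15. Members and lists were chosen with earlier results of these data known. Named were all members that passed, and up to 3 further members per role by smallest p with every library's value. Up to 3 genes that passed were also named per other endothelial list and for mural cells. Genes that passed in the choroid plexus, microglia, astrocyte, oligodendrocyte and neuron lists were not named. Plvap and S100a8, and the remaining members given by their interval or range, were named after their values were seen. Several listed genes were not analysed here. On simulated counts for 15288 genes with 200 changed, the test recovered 19.7% of 1.5-fold, 53.0% of 2-fold and 93.1% of 4-fold changes, and 5.45% of calls were false. The changed genes were drawn only from those above a floor of mean counts, so recovery at the lowest counts was not covered. They were also fewer than the 1001 genes called in the data.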

Additional observations from a re-analysis of the deposited data

Results flagged for a closer look

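In 5 cases among 70 groups of 4 libraries, 1 library stood apart from the other 3 by more than 0.829 of the group's range, and chance gives about 1 in 20. Sox17 was at 3.49 CPM in knockout 3, against 2.58 to 2.71 CPM in the other knockouts. Adgrl4 was at 9.71 CPM in control 1, below 13.5 to 14.1 CPM in the other controls, and its fold change without that control was 0.93. Egfl7 was at 2.85 CPM in control 3, below 4.17 to 4.39 CPM in the other controls. Cyyr1 was at 8.70 CPM in control 3, above 5.71 to 6.19 CPM in the others. Apcdd1 was at 18.4 CPM in control 4, below 26.5 to 27.4 CPM in the others.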

How the results depend on the processing

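The 5 summary values were refitted under 16 alternatives. The median of the identity genes ran from 0.23 to 0.41 over the 8 fits leaving out a library, and was 0.27 to 0.36 under the others. Members called higher were 7 with DESeq2's size factors and 8 with upper-quartile factors, beside 540 and 683 of all 15564 genes higher and 466 and 394 lower. They were 9 without a filter (821 of 28732 genes higher and 745 lower) and 6 at 1 CPM or more in 4 libraries (528 of 14458 higher and 463 lower). They were 10 in DESeq2 (912 of 16468 higher and 854 lower), 5 in limma voom (480 of 15564 higher and 463 lower) and 11 at an adjusted p of 0.1 (1108 higher and 1075 lower). In each of these fits 1 member was lower. Over the fits leaving out a library, 2 to 11 members were higher and 0 to 2 lower. Over all genes the same fits gave 93 to 1012 higher and 35 to 1043 lower, the fewest without control 2. No tested member that passed in any fit changed sign. Adgrf5, Egfl7, Foxf2, Foxq1, Palmd, Podxl, S1pr1 and Sox18, which never passed, did so in at least 1 fit.

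Column numbers 2, 3 and 4 stand in both groups, but the sample titles number the groups apart, so nothing pairs the libraries. The correlations of same-numbered libraries' deviations were 0.0125, -0.211 and 0.223. With the number as a replicate block, 0 members were higher and 0 lower in edgeR (9 and 2 at an unadjusted p under 0.05), with 15 and 2 over all genes. That fit gives a level each to 5 numbers, and so leaves few degrees of freedom. Depth limits Erg, Sox18, Icam2, Pglyrp1 and the control level of Ctla2a, which rest on few counts. The simulation recovered few 1.5-fold changes, so changes of that size can be missed.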
